A study of Mus musculus with 7 samples.

Results

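The chaperonins are ring-shaped protein-folding machines, and 10 mouse genes that encode them are described here in haematopoietic stem and progenitor cells after loss of the kinase gene Lkb1 (official symbol Stk11). Hspd1 encodes HSP60 and Hspe1 its lid HSP10, which fold proteins in the mitochondrial matrix, and Tcp1, Cct2, Cct3, Cct4, Cct5, Cct6a, Cct7 and Cct8 encode the 8 subunits of the cytosolic TCP1 ring complex (CCT). All probe sets whose single gene symbol in the platform annotation was one of these names were taken, which gave 26 of 20380 probe sets with 1 symbol, for 10 of the 12393 genes named on the array. The family was picked from these same arrays with the KO and WT values in view, so its differences are given as a description, with no p-value, and nothing is read from the fact that members differ.

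RNA was measured on 7 arrays, 1 per sample, of LSK cells (Lin-, Sca-1+, c-Kit+) sorted from femoral and tibial marrow of C57BL/Ka-CD45.2:Thy-1.1 mice, and about 10 ng of RNA per sample was amplified. The 4 Lkb1 KO samples (numbers 4 to 7) came from Lkb1 L/L mice carrying rosa26CreERT2, a tamoxifen-activated recombinase expressed from a locus active in most cell types. The 3 Lkb1 WT samples (numbers 5 to 7) came from Lkb1 L/L mice without the recombinase. All animals received tamoxifen for 5 days and cells were sorted 1 day later, 15000 to 20000 per sample. The Lkb1 L/L alleles and tamoxifen were thus shared by both groups, while the recombinase was present in KO alone, so its effect and that of Lkb1 loss cannot be told apart. Whether each sample came from its own animal is not stated in the labels, so the p-values rest on sample-to-sample spread that may be technical in part.

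HSP60 and HSP10 form a closed cage in which proteins imported into mitochondria reach their folded state, and both are induced when unfolded proteins accumulate. CCT folds actin and tubulin in the cytosol, along with regulators such as the mitotic activator Cdc20, and receives unfolded chains from the co-chaperone prefoldin. Heat shock factor, the activator of many chaperone genes, binds inverted repeats of the bases GAA.

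Promoters are shown because the pair Hspd1 and Hspe1 lies head to head on chromosome 1, while the CCT genes in the RefSeq table lie on 8 other chromosomes, 1 each. RefSeq promoter windows (build GRCm38.p6, 250 bases before to 50 after each start) were held for 9 of the 10 genes, in 12 windows. The words searched, on both strands, were GAANNTTC and TTCNNGAA, which are 2 inverted heat shock units and may overlap each other, the NF-Y box CCAAT, and the E-box CACGTG. The stretch between the Hspe1 start and the Hspd1 start upstream of it is chr1:55087933-55088147, plus strand. The Cct5 and Cct8 stretches end 1 base before the start, at chr15:31601847-31602096 and chr16:87495870-87496119, minus strand, and show a CCT promoter with 1 such word and one with none. Capitals mark any match to the 4 words.
Hspd1 and Hspe1: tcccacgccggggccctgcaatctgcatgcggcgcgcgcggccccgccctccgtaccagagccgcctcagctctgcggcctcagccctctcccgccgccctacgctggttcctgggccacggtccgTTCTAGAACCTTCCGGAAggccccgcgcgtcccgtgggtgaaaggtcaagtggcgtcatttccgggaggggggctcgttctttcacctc
Cct5: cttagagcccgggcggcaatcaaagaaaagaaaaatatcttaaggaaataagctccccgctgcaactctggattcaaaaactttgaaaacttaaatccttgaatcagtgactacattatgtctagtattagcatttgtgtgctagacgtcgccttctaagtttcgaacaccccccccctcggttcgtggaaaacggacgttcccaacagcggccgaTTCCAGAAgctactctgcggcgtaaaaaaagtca
Cct8: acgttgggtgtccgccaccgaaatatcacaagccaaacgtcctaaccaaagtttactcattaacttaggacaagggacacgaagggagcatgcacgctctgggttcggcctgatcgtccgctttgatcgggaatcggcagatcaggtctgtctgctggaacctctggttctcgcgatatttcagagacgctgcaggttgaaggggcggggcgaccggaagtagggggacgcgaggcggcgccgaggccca

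Between Hspd1 and Hspe1 the run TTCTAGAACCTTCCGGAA, 18 bases, joined 4 heat shock units end to end, 89 to 72 bases before the Hspe1 start. The Hspd1 start upstream of Hspe1 lay 216 bases away, so the run was part of the windows of both genes. Another Hspd1 start lay 95 bases beyond the Hspe1 start, and its window held an E-box and an NF-Y box but no heat shock word. At least 3 such units in a row occurred in 0.603% of all 32851 windows. The single words GAANNTTC and TTCNNGAA occurred in 7.86% and 8.52% of all windows. Among CCT genes a word was found once each in Cct2 (GAAGTTTC, from base -42), Cct5 (TTCCAGAA, from base -34) and Cct6a (TTCGAGAA, from base 24). The NF-Y box, in 37.4% of all windows, occurred in those of Tcp1, Cct3, Cct6a, Cct7 and Hspd1, and the E-box, in 7.15%, in that of Hspd1. A match is a string of letters and says nothing about binding in these cells.

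**Figure D1:**
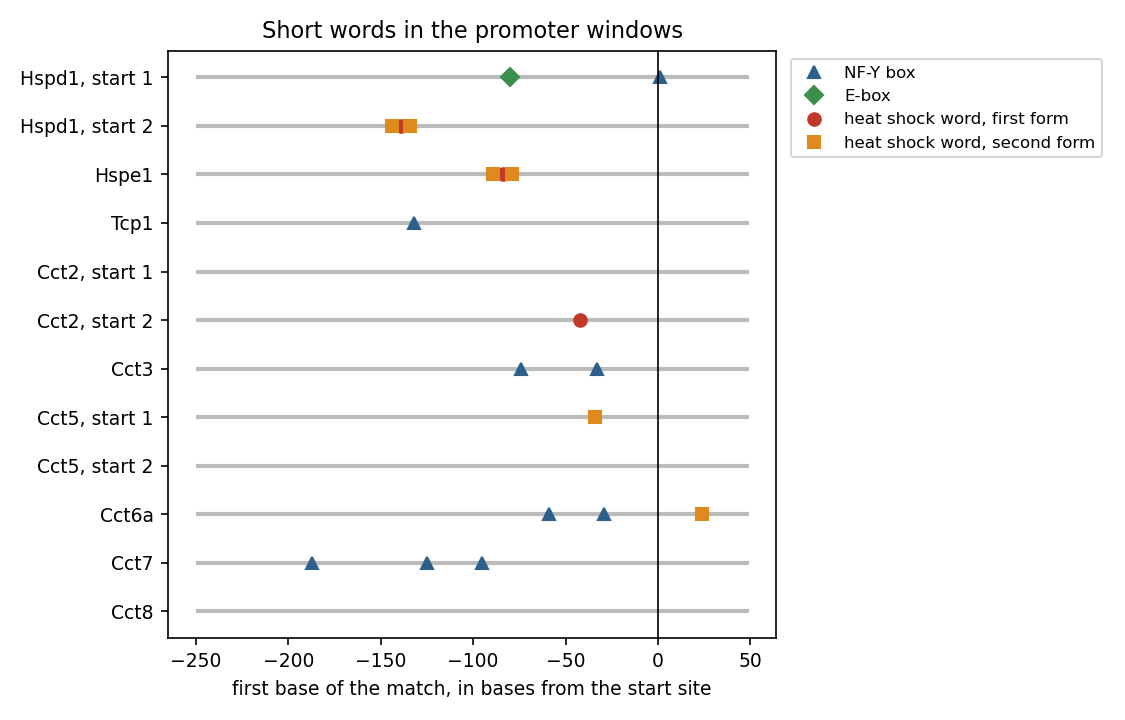
Position of each word match in the 12 promoter windows of 9 chaperonin genes, in bases from the start site (vertical line); each grey line is 1 window, and the 2 forms of the heat shock word are drawn separately. The matches of Hspe1 and of the second Hspd1 start are the same run of 18 bases seen from both sides, and the windows of Cct8, of 1 Cct2 start and of 1 Cct5 start hold no match.

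The deposited signals were not scaled alike between arrays. The trimmed mean signal lay between 360.4 and 425.9 on KO arrays, against 228.6 and 340.5 on WT arrays (two-sided exact permutation p = 0.0286, the smallest that 4 against 3 allows). The 3' to 5' signal ratio of Actb control probes, which reflects RNA length and amplification, lay between 11.4 and 12.3 on KO arrays, against 12.6 and 13.1 on WT arrays (two-sided exact permutation p = 0.0571). The same ratio for Gapdh did not separate the groups, at 7.49 to 7.95 in KO, against 6.68 to 9.46 in WT (two-sided exact permutation p = 0.6). Hybridization controls averaged 10.40 to 10.50 log2 units in KO, against 10.43 to 10.61 in WT (two-sided exact permutation p = 0.171). Values below are thus log2(signal + 16) after quantile normalization, which sets the typical gene at no change. Before it the median tested gene was 0.34 log2 units higher in KO. Recomputed with the signals as deposited, Hspd1 was higher in KO by 1.44 log2 units, in a setting where the median gene was higher too. With the Actb ratio as a covariate it was higher by 0.88 and not past the threshold. Because that ratio did not overlap between KO and WT, this fit separates ratio and group poorly. Neither value is a check on a gene picked from these arrays. The targeted gene Stk11 read 7.18, 6.98, 6.68 and 6.44 in KO 4 to 7, against 7.63, 7.16 and 7.35 in WT 5 to 7, a difference of -0.56 ± 0.19 (SE, limma adjusted p = 0.117), with overlapping groups. Whether its probes lie in the deleted part is not known here, so this reading does not check the labels. In bulk samples, fewer cells of a type and less RNA per cell cannot be told apart.

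Hspd1 had the largest difference of the 10 genes in the main setting. Its single probe set (1426351_at) gave 12.36, 12.17, 12.04 and 12.35 in KO 4 to 7, against 11.23, 10.94 and 11.36 in WT 5 to 7. The lowest KO array lay above the highest WT array. Hspd1 averaged 12.23 ± 0.16 in KO (SD, n = 4), against 11.18 ± 0.21 in WT (SD, n = 3), a difference of 1.05 ± 0.13 log2 units (SE), or 2.08-fold higher in KO. In the signals as deposited it read 6145.3, 5256, 4395.3 and 5542.5 in KO, against 2336.5, 1801.6 and 1756 in WT. It was the one chaperonin gene past the threshold of the fit over all genes (limma, Benjamini-Hochberg adjusted p under 0.05), where 2.48% of 8077 tested genes were called higher in KO and 2.96% lower. Its difference was the 14th highest of all tested genes. It ranged from 0.93 to 1.13 when each sample was left out in turn, and passed in 7 of 7 of those fits. Those fits reuse the arrays on which the family was picked, so they are no separate check of the difference.

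Hspe1, the partner of Hspd1 across the shared stretch, was higher in KO by a smaller amount. Its brighter probe set (1450668_s_at) gave 10.02, 10.26, 10.11 and 10.15 in KO 4 to 7, against 9.74, 9.83 and 9.60 in WT 5 to 7. The groups did not overlap, and the order of arrays within a group was not that of Hspd1, since WT 6 was the highest WT array for Hspe1 and the lowest for Hspd1. The difference was 0.41 ± 0.10 log2 units (SE), 1.33-fold, and it was not past the threshold. The dimmer probe set (1422579_at) gave 7.62, 7.63, 7.52 and 7.95 in KO and 7.42, 7.43 and 7.63 in WT, a difference of 0.18 with overlapping groups. The Hspd1 level minus the Hspe1 level, each on its own probe set, was 2.35, 1.91, 1.93 and 2.20 in KO 4 to 7, against 1.49, 1.11 and 1.76 in WT 5 to 7, so the gap between the readings was wider on each KO array than on each WT array.

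**Figure D2:**
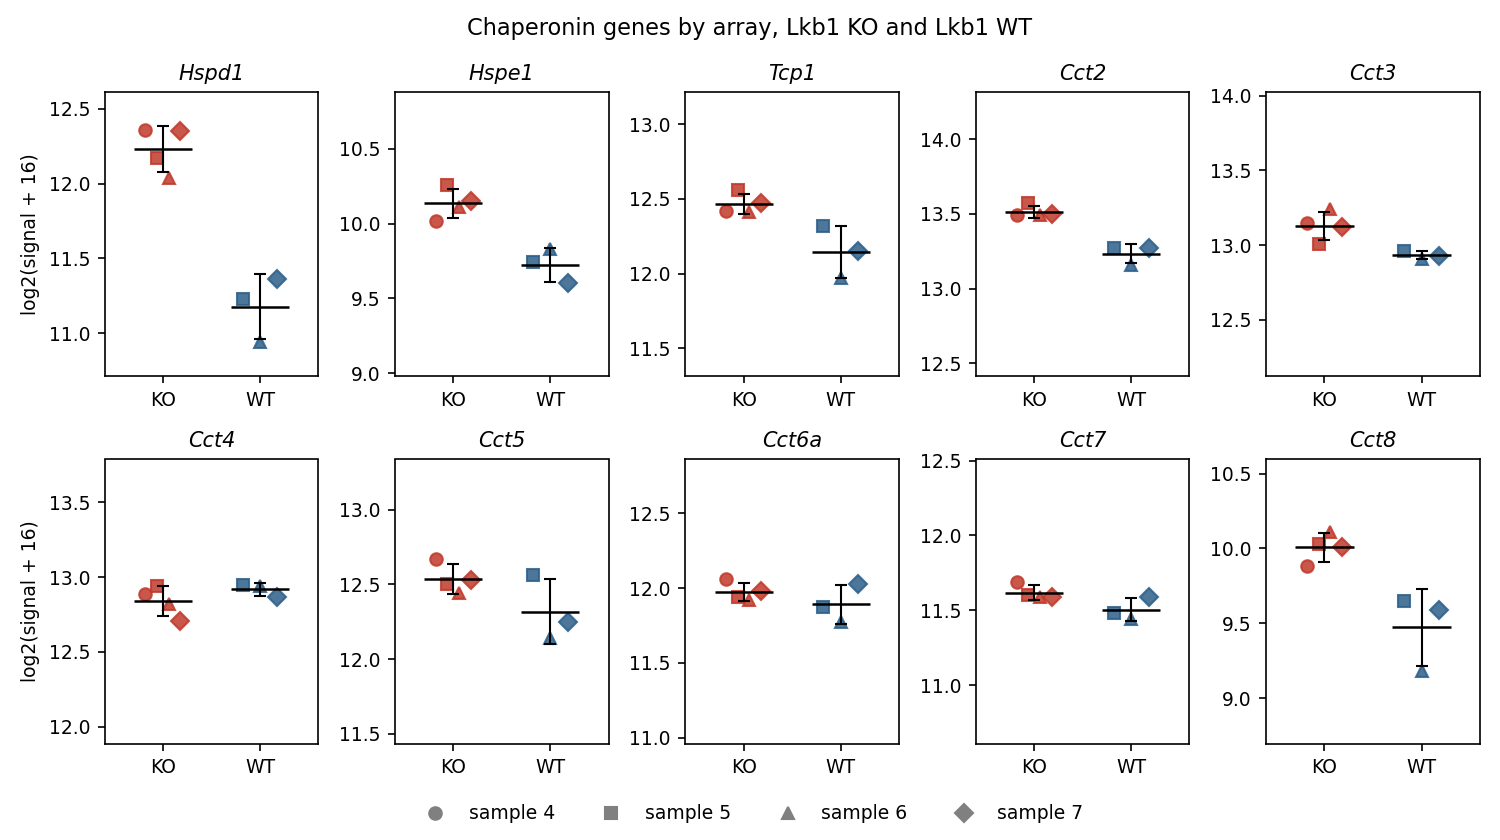
Level of each of the 10 chaperonin genes, in log2(signal + 16) after quantile normalization, on the 4 KO arrays (left, red) and 3 WT arrays (right, blue); marker shapes give the sample number, horizontal lines the group mean and bars the SD, and each panel spans the same number of log2 units. KO and WT separate most widely for Hspd1, and Cct4 lies slightly lower in KO on average with overlapping groups.

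No gene of the CCT ring passed the threshold in either direction. Over all tested genes 2.48% were called higher in KO and 2.96% lower, so for 8 genes nothing is read from this count. All 8 passed the filter on dim signals, and their median difference was 0.21, against -0.015 over all tested genes. Averaged over the 8 genes, the ring read 12.28, 12.27, 12.25 and 12.24 in KO 4 to 7, against 12.13, 11.94 and 12.08 in WT 5 to 7. The 4 KO arrays lay closer together, with an SD of 0.019 (n = 4), than the 3 WT arrays, with an SD of 0.10 (n = 3). WT 6 was the lowest of these, and the gap in spread was not tested. By gene, the SD was smaller in KO for Tcp1, Cct2, Cct5, Cct6a, Cct7 and Cct8. It was larger in KO for Cct3 (0.095 against 0.023) and Cct4 (0.10 against 0.047). The difference of the ring mean was 0.21, and Hspd1 minus this mean was 0.84 higher in KO than in WT.

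Cct8, the theta subunit, had the largest difference of the ring. It gave 9.88, 10.03, 10.11 and 10.01 in KO 4 to 7, against 9.65, 9.18 and 9.59 in WT 5 to 7. The groups did not overlap, and WT 6 was low within its group. The difference was 0.53 ± 0.13 log2 units (SE), 1.45-fold, and 0.38 without WT 6. With the Actb ratio as a covariate it was 0.88, as large as that of Hspd1 in the same fit, and neither passed the threshold there. A second Cct8 probe set (1436973_at) was not above the background level of 13.64 signal units on any array and gives no difference.

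Tcp1, the alpha subunit, and Cct2, the beta subunit, came next. Tcp1 gave 12.42, 12.56, 12.41 and 12.47 in KO, against 12.32, 11.97 and 12.15 in WT, a difference of 0.32 ± 0.11 (SE). Cct2 gave 13.49, 13.57, 13.49 and 13.50 in KO, against 13.27, 13.16 and 13.27 in WT, a difference of 0.28 ± 0.08 (SE). Neither gene had overlapping groups. The other probe sets of Cct2 went opposite ways: 1416037_a_at differed by 0.44, with 11.83, 11.86, 11.73 and 11.80 in KO and 11.44, 11.15 and 11.49 in WT, while 1433534_a_at differed by -0.10, with 11.75, 11.73, 11.58 and 11.70 in KO and 11.66, 11.86 and 11.86 in WT. For Cct2 the direction therefore depends on the probe set.

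Of the remaining subunits, Cct3 (gamma) gave 13.15, 13.01, 13.24 and 13.12 in KO, against 12.96, 12.91 and 12.93 in WT, a difference of 0.20 ± 0.09 (SE) without overlap. Cct5 (epsilon) gave 12.67, 12.50, 12.44 and 12.53 in KO, against 12.56, 12.14 and 12.25 in WT, a difference of 0.22 ± 0.12 (SE) with overlap at WT 5, and it ran from 0.13 without WT 6 to 0.35 without WT 5. Cct7 (eta) and Cct6a (zeta) differed by 0.12 ± 0.09 and 0.086 ± 0.10 (SE), with overlapping groups, and Cct6a ran from 0.023 without WT 6 to 0.15 without WT 7. Cct4 (delta) was the one member below 0: it gave 12.89, 12.94, 12.82 and 12.71 in KO, against 12.95, 12.94 and 12.87 in WT, a difference of -0.077 ± 0.09 (SE). In its signals as deposited Cct4 was 1.16 times as high in KO as in WT as a ratio of means, so its direction turns with the scaling.

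**Figure D3:**
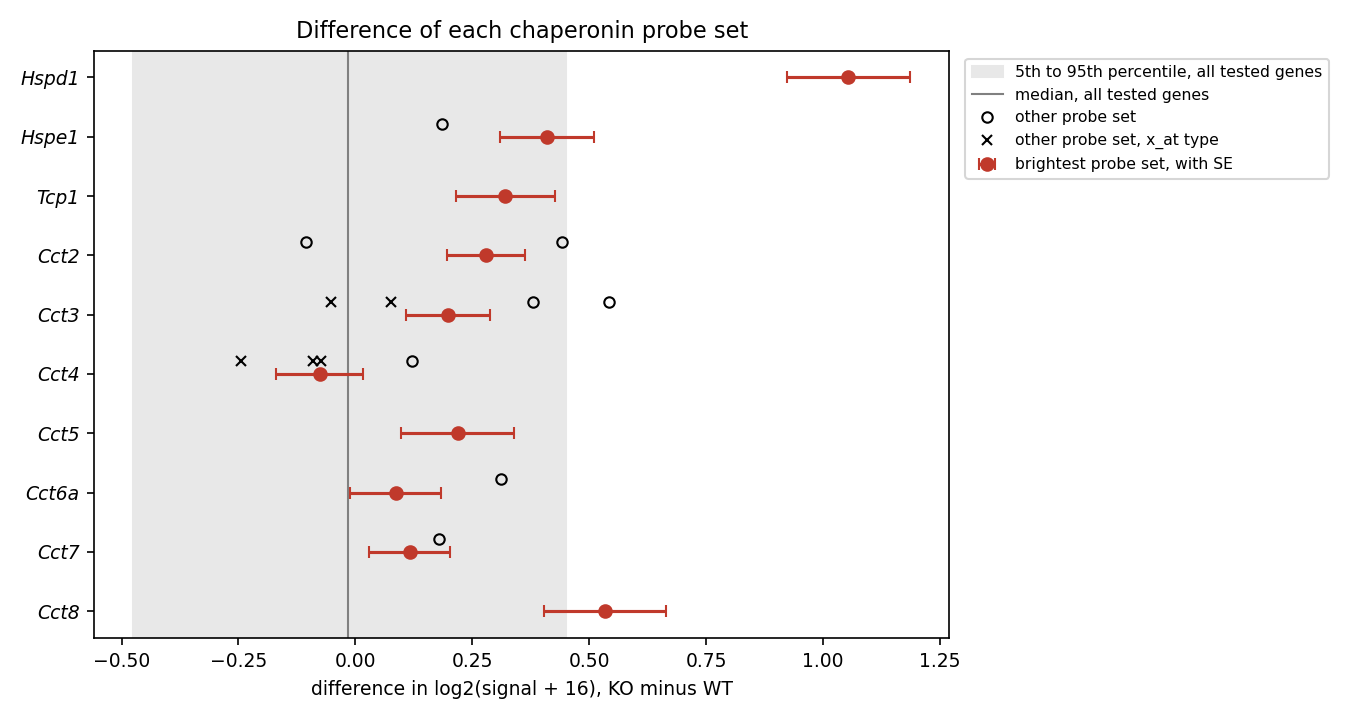
Difference in log2(signal + 16), KO minus WT, of the 23 chaperonin probe sets that passed the filter; red points are the brightest probe set of each gene with its SE, open circles and crosses the other probe sets, and the grey band the 5th to 95th percentile of 8077 tested genes. Hspd1 at 1.05, Cct8 at 0.53 and 1 dimmer Cct3 probe set at 0.54 lie beyond the upper edge of the band at 0.45, and the brightest probe sets of Cct2 and Cct4 are themselves of the x_at type.

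On the brightest probe set of each gene, KO and WT did not overlap for 6 of the 10 genes (Hspd1, Hspe1, Tcp1, Cct2, Cct3 and Cct8), with KO above WT. Among the 23 member probe sets that passed the filter, 10 had every KO array above every WT array. Over all tested genes, 11.4% had every KO array above every WT array. Among the 1940 tested genes outside the family that were at least as bright as its dimmest member this share was 17.2%, and their median difference was -0.0071. Since the family was picked on these arrays, nothing is read from these shares. The array WT 6 was the lowest of the 7 for 8 of the 10 members and for 16.3% of all tested genes. Without it the median difference over the members was 0.21, against 0.25 with all arrays.

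Probe sets of the same gene differed, by their type in Cct3 and Cct4 but not in Cct2. An x_at probe set may hold probes that also match other transcripts, so it can read related copies along with its gene. Of the 23 probe sets that passed the filter, 7 were of this type, and 2 of these were higher in KO, with a median of -0.073. Of the other 16, 15 were higher in KO, with a median of 0.27. Since 4 of the 7 belonged to Cct4, type and gene cannot be told apart in these medians. Within Cct3 and Cct4 the x_at probe sets lay below the others, while the x_at probe set of Cct2, at 0.28, lay between its others, at 0.44 and -0.10. For Cct4, 4 of its 5 probe sets were of the x_at type, and the remaining one (1415867_at) gave 12.32, 12.34, 12.27 and 12.22 in KO and 12.26, 12.06 and 12.18 in WT, a difference of 0.12. The probe sets of Cct3 ranged from -0.053 to 0.54 and those of Cct6a from 0.086 to 0.31. The 3 probe sets below the filter belonged to Cct3, Cct4 and Cct8. This grouping by type was made after the values were seen.

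The number of members past the threshold depended on the processing. It was 1 (Hspd1) in the main setting, where 2.48% of all tested genes were called higher. It was 4 with the scaling as deposited, 3 with median centring, and 6 where the prior variance followed the intensity (Hspd1, Hspe1, Tcp1, Cct2, Cct3 and Cct8). In those settings 17.0%, 6.75% and 5.50% of all tested genes were called higher, so the background was larger there too. It was 0 with the replicate number as a block or the Actb ratio as a covariate, where 0 and 0 of all genes passed as higher and 1697 and 713 genes had an unadjusted p under 0.05 in limma. Both fits leave fewer residual degrees of freedom than the main setting. The Actb ratio did not overlap between KO and WT, and with it the SE of Hspd1 was 0.26, against 0.13 in the main setting. Nothing is therefore read from the counts of 0. Relative to the median tested gene, 9 of 10 members lay higher in each of the 4 scalings, Cct4 being the exception.

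**Figure D4:**
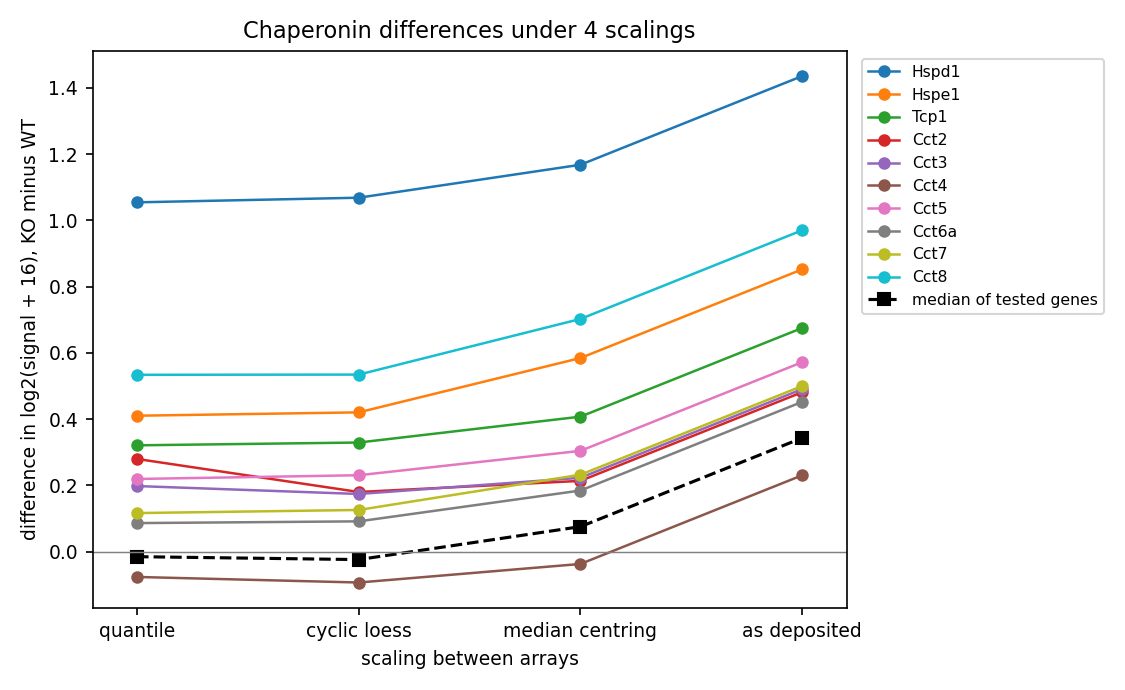
Difference in log2(signal + 16), KO minus WT, of each chaperonin gene under 4 scalings between arrays, with the median of all tested genes as a dashed line. Members and median lie higher in the scaling as deposited than after quantile normalization, by 0.36 for the median gene, and Cct4 stays below the dashed line in all 4.

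The other chaperone genes of the cell were compared through lists, in which a called gene had a limma adjusted p under 0.05 over all tested genes. By that threshold 2.48% of all tested genes were called higher in KO and 2.96% lower, which is the background for the counts of called genes. Over all 8077 tested genes, 11.7% had an unadjusted p under 0.05 and were higher in KO, and 13.6% were lower, which is the background for the unadjusted counts given below. A list of 18 tested genes covered the mitochondrial Hsp70 system, mitochondrial proteases, and others such as Phb2 and Ppif. None of the 18 was called, 7 higher and 1 lower had an unadjusted p under 0.05 in limma, and the median was 0.14. Hspa9, the mitochondrial Hsp70 that pulls proteins into the matrix, was at 0.31 ± 0.09 (SE, adjusted p = 0.0775), and its exchange factor Grpel1 at 0.31 ± 0.09 (SE, adjusted p = 0.0921). The matrix Hsp90 gene Trap1 was at 0.22 (adjusted p = 0.192). The protease genes Lonp1, Clpp and Clpx were at 0.25, 0.18 and -0.13 (adjusted p = 0.159, 0.294 and 0.521). As means over their probe sets, Hspa9, Grpel1 and Trap1 were at 0.36, 0.31 and 0.29, and Lonp1, Clpp and Clpx at 0.25, 0.24 and -0.13. The list ran from -0.42 (Hscb) to 0.81 (Spg7), both named after their values were seen. Spg7, a dim protease gene with overlapping groups, had an SE of 0.32 (limma adjusted p = 0.161). These values were smaller than the Hspd1 difference of 1.05, a gap that was not itself tested.

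None of the genes that work with CCT was called. Of 15 tested genes for prefoldin and CCT cofactors, 2 higher and 1 lower had an unadjusted p under 0.05 in limma, and the median was -0.064. The prefoldin genes Pfdn2 and Pfdn5 were at -0.0035 and -0.16 (adjusted p = 0.995 and 0.512), and the CCT regulator gene Pdcl3 was at 0.15 (adjusted p = 0.388). Pfdn6, another prefoldin gene, named after its values were seen, was at 0.96 ± 0.26 (SE, adjusted p = 0.0651), with 11.16, 10.84, 10.08 and 10.14 in KO 4 to 7, against 9.56, 9.67 and 9.56 in WT 5 to 7. Of 17 tested genes for CCT substrates, 5 had an unadjusted p under 0.05 in limma, all higher in KO, and the median was 0.11, with the actin gene Actb at 0.32 (adjusted p = 0.124) and the tubulin gene Tubb5 at 0.053 (adjusted p = 0.772). Averaged over all their probe sets, Actb was at 0.015 and Tubb5 at -0.037 (adjusted p = 0.939 and 0.828). The chaperonin-like gene Mkks was at 0.31 (adjusted p = 0.234), and Cct6b lay below the filter.

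Among 28 tested cytosolic heat shock genes, 1 was higher and none lower (median 0.10), and 9 higher and 2 lower had an unadjusted p under 0.05 in limma. The one called was Fkbp4, a co-chaperone of Hsp90 (0.44 ± 0.10, SE, adjusted p = 0.0402), and it passed in none of the 7 fits without 1 sample, nor as a mean over its probe sets (0.18, adjusted p = 0.354). The constitutive Hsp70 gene Hspa8 was at 0.012 (adjusted p = 0.941) and the inducible Hsp90 gene Hsp90aa1 at 0.053 (adjusted p = 0.731), each on its brightest probe set. Averaged over all their probe sets they were at 0.26 and 0.47 (adjusted p = 0.286 and 0.0782), so these levels depend on the probe set. Hsf2 was not above background on any array, and Hsf1 and Hsp90ab1 were not analysed here. Of 13 genes for chaperones of the endoplasmic reticulum, Sdf2l1 (0.72 ± 0.16, SE, adjusted p = 0.04) and the disulfide isomerase gene Pdia4 (0.71 ± 0.16, SE, adjusted p = 0.0401) were higher, and the Hsp40 gene Dnajb9 was lower (-0.46 ± 0.11, SE, adjusted p = 0.0482), with a median of 0.25. Among these 13 genes of the endoplasmic reticulum, 7 higher and 1 lower had an unadjusted p under 0.05 in limma. Hspa5, the main Hsp70 of that compartment, was at 0.17 (adjusted p = 0.401), and at 0.36 as a mean over its probe sets (adjusted p = 0.0975). None of these 3 calls passed in any of the 7 fits without 1 sample.

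The genes whose profile over the 7 arrays lay nearest to that of Hspd1 were Mcm5, a subunit of the replicative helicase, Cst7, a cysteine protease inhibitor, Coq7, an enzyme of coenzyme Q synthesis, Lgals1, a galectin, and Fkbp11, a prolyl isomerase. Their distances (Euclidean, over mean-centred log2 values on 7 arrays) were 0.31, 0.40, 0.44, 0.47 and 0.48. The nearest member, Cct8, lay farther away at 0.81, and Hspe1 at 1.03. This distance grows with any gap in the size of the KO to WT difference. The 5 nearest genes differed by 0.75 to 1.04, against 1.05 for Hspd1, 0.53 for Cct8 and 0.41 for Hspe1. Likeness of pattern apart from size was not tested. For the mean profile of the CCT ring the nearest genes were Anp32b, Stt3b, Tmpo, Cbfb and Cnih1, at 0.039 to 0.093.

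Genes of cell division and of mature blood cells differed between the same arrays. Of 19 tested DNA replication genes 8 were higher in KO and none lower (median 0.41), led by Mcm5 (0.87 ± 0.13, SE, adjusted p = 0.0198) and Gins1 (0.93 ± 0.15, SE, adjusted p = 0.0213), and of 14 mitosis genes 4 were higher and none lower (median 0.28), led by Bub1 and Kif20a at 0.54 and 0.75 (adjusted p = 0.0252 and 0.0405). Without any 1 sample the first count was 0 to 4 and the second 0. As a mean over its probe sets Bub1 was at 0.58 and not past the threshold (limma adjusted p = 0.0788). With an unadjusted p under 0.05 in limma, 17 replication and 6 mitosis genes were higher and none lower. Of 13 tested markers of mature granulocytes and monocytes 8 were called lower and none higher, with the granule genes Ngp at -1.90 and Camp at -1.83 (adjusted p = 0.00644 each). The other members did not all share that direction: Csf1r and Itgam, named after their values were seen, were at 0.75 and 0.40 (adjusted p = 0.0822 and 0.0663), with every KO array above every WT array, and they were the 2 higher genes with an unadjusted p under 0.05 in limma. Cd14 was at 0.45 (adjusted p = 0.218). The summed signal of the 13 genes was 12126 to 17418 in KO, against 28767 to 38596 in WT. Of 7 tested LSK markers, Hlf (-0.84, adjusted p = 0.0106) and Kit (-0.43, adjusted p = 0.0465, and 0.012 in the scaling as deposited) were lower, and the summed signal of the 8 on the array was 10414 to 11396 in KO, against 13281 to 14521 in WT. Among the 7 tested LSK markers, 5 lower and none higher had an unadjusted p under 0.05 in limma. The part of these shifts in the chaperonin values was not tested.

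Fewer genes could be read in the remaining marker lists. Of 5 tested erythroid genes 1 was lower, Ermap at -1.21 (adjusted p = 0.0223), with Car1 at -1.05 (adjusted p = 0.0595). Of 5 tested megakaryocyte genes 1 was lower, Plek at -0.78 (adjusted p = 0.0411), with Gp1bb at -0.34 (adjusted p = 0.0768). As a mean over its probe sets Plek was at -0.45 and not past the threshold (limma adjusted p = 0.0738). With an unadjusted p under 0.05 in limma, 4 erythroid and 2 megakaryocyte genes were lower and none higher. The collagen gene Col1a2, the one stromal gene tested, was lower at -0.94 (adjusted p = 0.0425), and its partner Col1a1 was not above background on any array. The B cell gene Cd79b was at -0.12 (adjusted p = 0.514), and Cd79a and Pax5 were not above background on any array. No T or NK cell gene passed the filter, and Cd3e and Cd3g were not above background on any array. Without any 1 sample the counts of lower genes were 6 to 8 for granulocytes and monocytes, 1 for LSK markers (Hlf), and 0 to 1 for the erythroid, megakaryocyte and stromal lists. Kit, Flt3 and Cd34, which define or mark early progenitors, were read well above background on all 7 arrays, and Ly6a, the gene of Sca-1, was not analysed here.

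**Figure D5:**
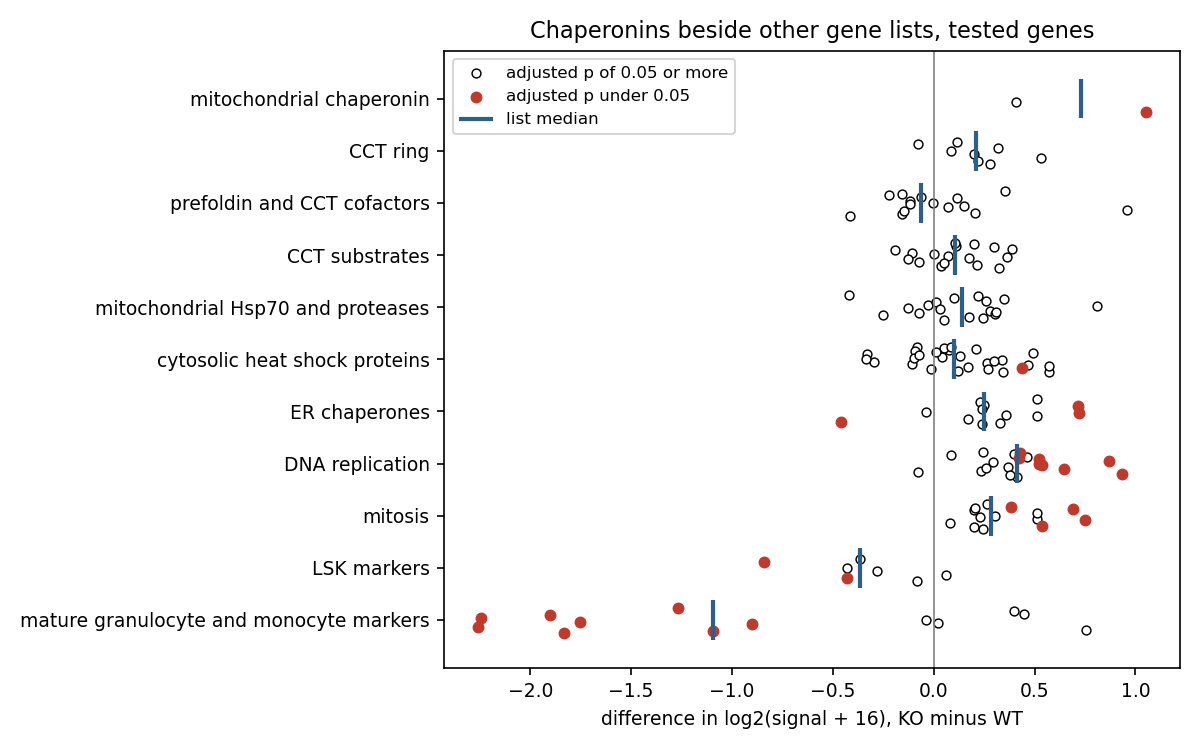
Difference in log2(signal + 16), KO minus WT, of each tested gene in 11 gene lists; filled points have a limma adjusted p under 0.05 over all 8077 tested genes, open points do not, and blue ticks are list medians. Hspd1 at 1.05 is the filled point of the mitochondrial chaperonin row, the CCT ring row has none, and the granulocyte and monocyte row reaches furthest to the left.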

How the data were processed

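The 7 samples were grouped as Lkb1 KO (n = 4) and Lkb1 WT (n = 3) from their titles. The values deposited by the authors are linear signal intensities, 1 for each probe set on each array. MAS5 is the tool named in the submitters' processing notes; the sources used here do not give its version or scaling target, and the file shows no common scale. The array named in the labels has a larger design than the 22690 probe sets in the file. Of these, 64 were controls, 20380 had 1 gene symbol in the platform annotation, 691 several and 1555 none, and 20351 were matched to the GRCm38.p6 gene table for current symbols. Intensities were analysed as log2(signal + 16), quantile normalized over non-control probe sets. Probe sets with a mean above the 40th percentile were kept, each gene was represented by its brightest one, and the 8077 genes left were compared by limma (version 3.58.1, R 4.3.3; lmFit, then eBayes). There were 5 residual degrees of freedom, p-values were adjusted over all genes by Benjamini-Hochberg, and the threshold was 0.05. The background level is the 95th percentile of 189 readings of 27 control probe sets for transcripts of other organisms (Dap, Lys, Phe, Thr, Trpn). Exact permutation tests, two-sided, were used for technical measures. The fit was also run on simulated data with planted differences and independent noise. These held no shift in array brightness or Actb ratio between groups, so that run does not cover those features of the arrays.

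The members and the gene lists were chosen with earlier results of these data known. Genes named were all members, genes of the chaperone lists past the threshold (up to 4 of lowest p a list), a fixed set of chaperone genes, the 2 of lowest p of each other list, and the 5 genes nearest in profile. Alternatives covered the scaling, pseudocount, filter, choice of probe set, prior variance, array weights, replicate block, an Actb ratio covariate, and omission of each sample in turn. Leaving out x_at probe sets was added after seeing the data. The number of arrays limits the precision. Deviations of same-numbered KO and WT samples from their group means correlated at 0.0292, 0.0988 and 0.0505, so the numbers were not taken to pair samples.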

Additional observations from a re-analysis of the deposited data

Results flagged for a closer look

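Among 60 sets of 4 KO values (3 WT samples were too few to examine), 3 had 1 sample far from the other 3, by a rule that chance meets in about 1 in 20 sets. For Cct2 (probe set 1433535_x_at) KO 5 was at 13.567, and the other KO samples lay between 13.491 and 13.497. For Cct7 (probe set 1415816_at) KO 4 was at 11.693, and the others lay between 11.586 and 11.604. For the receptor gene Kit, KO 5 was at 10.467, and the others lay between 10.371 and 10.386. All values are in log2(signal + 16), and the cause was not tested.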

How the results depend on the processing

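Hspd1 was called higher in 18 of the 20 alternatives, and not with the replicate block or the Actb covariate. All of these reuse the arrays on which the family was picked, so the count describes the processing alone. The direction of the 10 members was as in the main setting for all but Cct2, Cct3 and Cct4. Cct2 was at -0.10 without x_at probe sets, and Cct3 at -0.053 on 1 of its dimmer probe sets. Cct4 was at 0.12 without them and at 0.23 in the scaling as deposited. Kit turned to 0.012 in that scaling. The counts that follow are genes called higher and lower, then members called higher, then genes of the 6 chaperone lists called higher and lower, against 200, 239, 1, 3 and 1 in the main setting.

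They were 1372, 43, 4, 35 and 0 in the scaling as deposited (97.0% of calls higher, against 45.6%). With median centring they were 545, 166, 3, 16 and 0 (76.7% higher). With pseudocount 64 they were 326, 374, 3, 6 and 1, and with no filter 27, 47, 1, 0 and 0. With the filter at the 60th percentile they were 357, 358, 4 and 8 higher, and with an intensity trend 444, 442, 6 and 14 higher. Array weights left 1 of the listed genes higher, and cyclic loess, pseudocount 1 and the mean of a gene's probe sets left 0 lower. With the replicate block they were 0, 1, 0, 0 and 0, and with the Actb covariate 0 throughout. Leaving out 1 sample gave 8 to 76 genes higher and 35 to 119 lower, 1 member and 0 genes of the lists. The lowest count higher, 8, was without KO 7, and the lowest count lower, 35, without WT 7.

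The median over the members, 0.25, was 0.54 in the scaling as deposited, 0.21 with cyclic loess, 0.29 with the Actb covariate and 0.21 without x_at probe sets, and ranged from 0.21 (without WT 6) to 0.32 (without WT 5) without 1 sample. The cause of these shifts was not tested. Signal over background limits 3 dim member probe sets.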
